A study of Mus musculus with 12 samples.

Results

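The genes described here encode 4 receptors for the constant part of IgG (Fcgr1, Fcgr2b, Fcgr3 and Fcgr4) and 4 scavenger receptors (Msr1, Marco, Cd36 and Scarb1). Accessible chromatin around these 8 genes was read from ATAC-seq peak lists of mouse RAW264.7 cells, an established macrophage line; ATAC-seq uses a transposase to cut and tag DNA that is not covered by nucleosomes. Peaks of all 12 lists that overlapped or touched were merged, regions found in at least 2 lists were kept, and those within 50 kb of a receptor gene were taken. This gave 101 of the 76042 regions of the series. The rule uses gene names and positions only, although the genes were picked with earlier results of these data known.

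The cells were stable RAW264.7 lines in which doxycycline switches on either Nur77, a nuclear receptor that acts as a transcription factor, or green fluorescent protein (GFP). Both lines, controls included, received 1 µg/ml doxycycline for 18 h. There were 4 groups of 3 libraries: the GFP line untreated, the GFP line given 500 ng/ml lipopolysaccharide (LPS, a bacterial cell-wall component) for 1 h, the Nur77 line untreated, and the Nur77 line given the same LPS. The labels do not say whether libraries came from separate cultures or whether a line is 1 clone, so the spread between libraries may be technical and a difference between the lines need not be that of the induced protein. Of 7 macrophage marker genes, 7 had a region called in all 12 libraries within 1000 bp of a gene end, against 1 of 5 T cell, 1 of 4 B cell, 1 of 4 fibroblast, 0 of 4 epithelial and 0 of 4 neuronal markers. The lists held 36184 to 81467 peaks, with the fewest in Nur77 untreated replicate 2 and the most in GFP LPS replicate 3. These 2 libraries also called the fewest and the most of the receptor-gene regions, 49 and 94 of 101 (48.5% and 93.1%, beside 43.3% and 89.4% of all regions).

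Fc gamma receptors bind antibody-coated particles. Fcgr1, Fcgr3 and Fcgr4 are activating receptors that signal through a shared partner chain and drive phagocytosis, whereas Fcgr2b carries an inhibitory motif and dampens these signals. Msr1 (scavenger receptor A) and Marco are class A scavenger receptors that take up modified lipoproteins and bacteria. Cd36 and Scarb1 are class B receptors, of which Cd36 imports fatty acids and oxidised low-density lipoprotein and Scarb1 exchanges cholesterol with high-density lipoprotein.

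The promoter windows that could be matched were of 2 kinds. RefSeq promoter windows (GRCm38.p6, 250 bases before to 50 after the start site) were matched for 6 of the 8 genes. Those of Fcgr1, Fcgr2b, Fcgr3 and Fcgr4 each lay on a region called in all 12 libraries, as did 36.5% of the 32851 windows of the table. Those of Marco and Cd36 lay on no region, as did 58.1% of all windows, and the nearest region was 12.3 kb from the Marco window and 3.1 kb from that of Cd36. The Cd36 window lies inside the annotated span (chr5:17781690-17888959), which runs on upstream of it, so it need not be the gene's only start. Regions inside the gene and upstream of this window, among them chr5:17839220-17840276, were called in all 12 libraries. The sequences below show the open and the uncalled windows side by side, from 250 bases before to 20 after the start site, 5′ to 3′ on the gene's strand. Capitals mark matches to GAGGAA (the core of the PU.1 element of myeloid genes), an NF-kB element of GGG, any 2 bases and TTTCC, or TTGCNNAA (a C/EBP element) on either strand.
Fcgr1: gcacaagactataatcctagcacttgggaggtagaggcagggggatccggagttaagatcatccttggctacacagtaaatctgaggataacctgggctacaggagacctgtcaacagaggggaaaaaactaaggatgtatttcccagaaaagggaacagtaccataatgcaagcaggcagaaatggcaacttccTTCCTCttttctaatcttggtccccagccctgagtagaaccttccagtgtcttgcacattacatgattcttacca
Fcgr2b: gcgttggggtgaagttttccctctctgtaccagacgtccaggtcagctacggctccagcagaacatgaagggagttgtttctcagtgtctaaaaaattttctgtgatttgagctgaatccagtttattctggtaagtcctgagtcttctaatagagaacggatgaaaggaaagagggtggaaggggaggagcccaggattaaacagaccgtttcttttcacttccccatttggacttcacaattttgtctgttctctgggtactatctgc
Fcgr3: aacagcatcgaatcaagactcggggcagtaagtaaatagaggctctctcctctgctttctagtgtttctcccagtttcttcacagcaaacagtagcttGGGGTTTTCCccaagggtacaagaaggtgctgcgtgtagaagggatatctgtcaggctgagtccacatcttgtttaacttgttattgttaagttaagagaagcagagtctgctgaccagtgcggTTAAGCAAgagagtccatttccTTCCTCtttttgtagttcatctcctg
Fcgr4: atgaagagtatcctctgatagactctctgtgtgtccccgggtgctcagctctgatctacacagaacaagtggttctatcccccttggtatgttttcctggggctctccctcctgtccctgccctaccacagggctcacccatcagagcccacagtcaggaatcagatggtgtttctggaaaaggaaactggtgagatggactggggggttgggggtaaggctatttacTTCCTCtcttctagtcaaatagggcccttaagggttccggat
Marco: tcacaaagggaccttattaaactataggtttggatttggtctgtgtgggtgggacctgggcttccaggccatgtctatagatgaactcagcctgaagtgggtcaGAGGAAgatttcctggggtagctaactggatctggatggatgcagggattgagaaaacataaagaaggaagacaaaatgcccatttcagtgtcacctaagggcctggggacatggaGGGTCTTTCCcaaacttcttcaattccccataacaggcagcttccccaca
Cd36: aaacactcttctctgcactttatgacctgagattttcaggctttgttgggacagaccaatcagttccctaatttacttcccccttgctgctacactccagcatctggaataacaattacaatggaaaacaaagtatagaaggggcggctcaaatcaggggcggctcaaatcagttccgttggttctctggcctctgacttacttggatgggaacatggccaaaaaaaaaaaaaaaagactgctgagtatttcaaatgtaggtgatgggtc

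The full windows were chr3:96293920-96294219 (Fcgr1, minus strand), chr1:170976022-170976321 (Fcgr2b, minus strand), chr1:171059354-171059653 (Fcgr3, minus strand), chr1:171018676-171018975 (Fcgr4, plus strand), chr1:120504975-120505274 (Marco, minus strand), chr5:17835847-17836146 (Cd36, minus strand). Counted from the start site, GAGGAA lay at -55 in Fcgr1, -22 in Fcgr4, -6 in Fcgr3 and -146 in Marco, and 28.3% of all windows hold it. The NF-kB element occurred at -152 in Fcgr3 and -30 in Marco (1.63% of windows) and TTGCNNAA at -28 in Fcgr3 (10.8%). No match to TGANTCA (AP-1, 7.81% of windows), TGACGTCA (the cyclic AMP element, 1.79%), TATAAA (13.6%) or AAAGGTCA (the element bound by Nur77 as a monomer, 1.51%) was found in any of the 6 genes' windows. These letters were chosen after the windows had been seen, none of the motifs overlapped another within these windows, and a match is a description. CpG dinucleotides were few in most windows, with 0 in Marco, 1 in Fcgr1, 2 in Fcgr4, 3 in Cd36, 4 in Fcgr3 and 6 in Fcgr2b against a median of 7 over all windows.

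Accessibility around the genes ranged from dense and constant to sparse. Of the 101 regions, 41 (40.6%) were called in all 12 libraries, against 34.7% of all regions, and 30 lay inside a receptor gene. At Fcgr1, 13 of 16 regions were called in every library; 7 of those 16 lie closest to genes of the neighbouring histone cluster rather than to Fcgr1. Fcgr2b had 5 of 15 such regions, Fcgr3 10 of 17, Fcgr4 10 of 20, Scarb1 10 of 26, Cd36 4 of 15, Msr1 1 of 7 and Marco 0 of 7. Fcgr2b, Fcgr4 and Fcgr3 are neighbours on chromosome 1, so 20 regions fall in more than 1 of these windows and are counted under each.

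**Figure D1:**
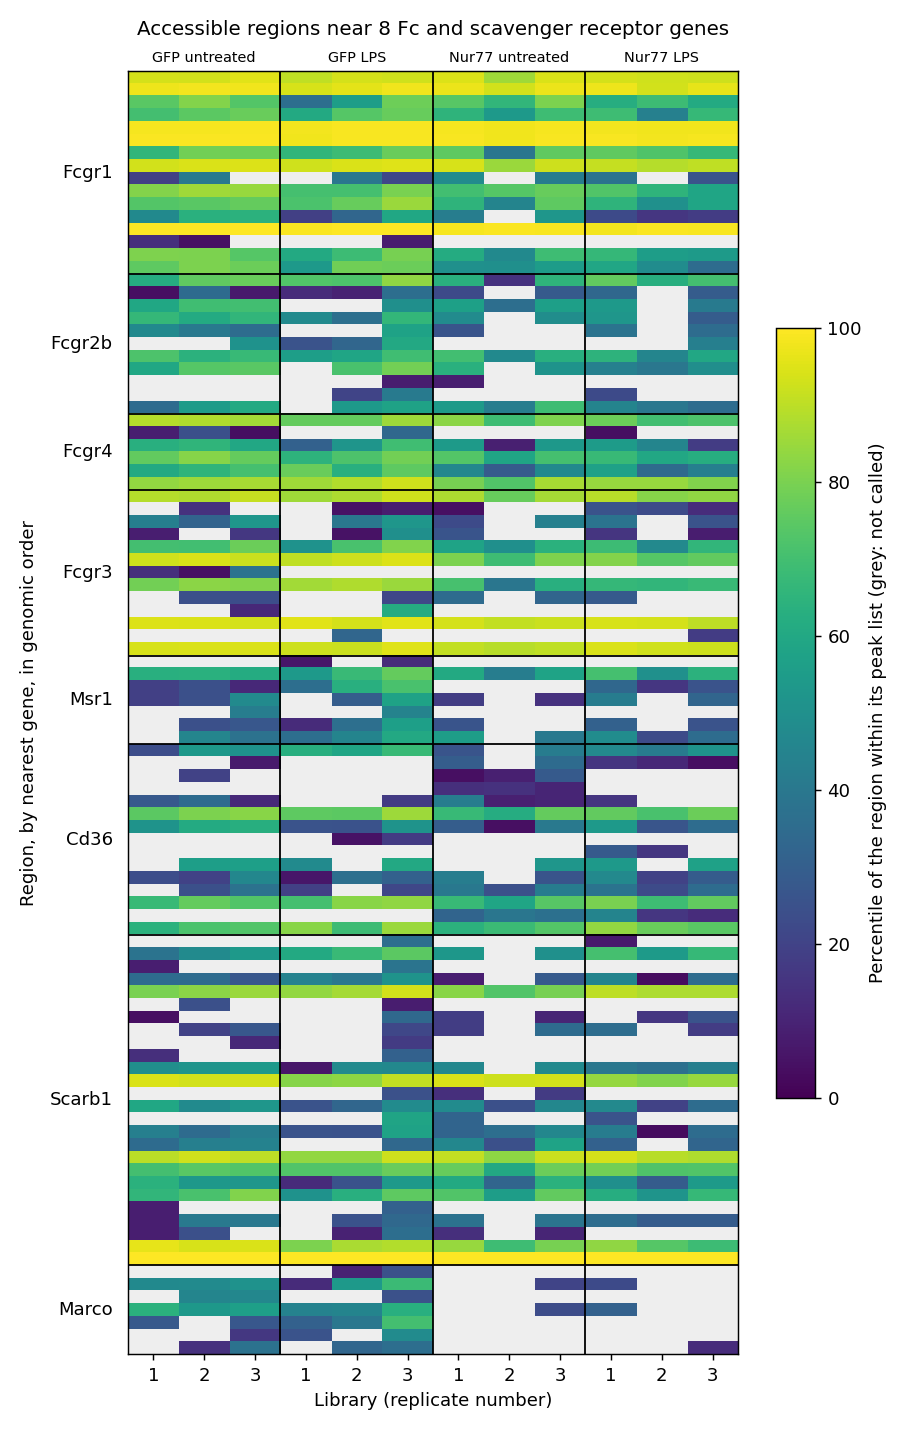
Percentile of each of the 101 regions within the peak list of each library (colour, 0 to 100 by the authors' -log10 q; grey, not called), with rows grouped by nearest receptor gene in genomic order and columns by group and replicate. Marco rows are grey in most Nur77 libraries, and Fcgr1 rows are filled in nearly all libraries.

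Calls were compared first, then strength. A region counted as gained when every library of the group named first and no library of its comparator called it, and as lost in the opposite case; 3 against 3 calls cannot give a two-sided p below 0.1, so these are counts. LPS in the GFP line gave 0 gained of 101 (1.96% of all regions) and 1 lost (1.02%). LPS in the Nur77 line gave 1 gained (1.94%) and 2 lost (0.46%). Without LPS, the Nur77 line against the GFP line gave 2 gained (0.308%) and 3 lost (3.4%). With LPS it gave 2 gained (0.304%) and 1 lost (2.18%). Between the lines, the lost counts, 2.97% and 0.99% of the receptor-gene regions, were near or under the background, and the gained ones, 1.98% each, rest on 3 regions at 1 gene, Cd36. These were 8 different regions: 4 at Cd36 and 1 each at Marco, Msr1, Fcgr3 and Fcgr4. Two-sided Fisher's exact tests over 6 against 6 libraries were run for the 20 regions called in 4 to 8 libraries, and none passed the Benjamini-Hochberg threshold of 0.05, as was so for all 20292 regions tested. For the line, the most extreme split of calls, 6 against 0, had an adjusted p of 0.092 in this test. No region could therefore have passed for the line, and the absence of a pass there decides nothing. The smallest Fisher's exact p that 6 against 6 calls can give, 0.0022, is the same for LPS, where 0 of the 20292 regions passed. The absence of a pass for LPS decides nothing either. At an unadjusted p under 0.05, 0 of the 20 passed for LPS (5.56% of all more often called and 1.48% less often), and 2 for the line, 1 more often called in Nur77 (0.651% of all) and 1 less often (7.32%).

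Strength was compared as a shared-set percentile: the rank of a region by the authors' -log10 q among the 26378 regions called in all 12 libraries, from 0 (weakest) to 100, so that every library ranks the same regions. Differences are in percentile points with the standard error (SE) from limma over all 12 libraries, with Benjamini-Hochberg adjustment over all 26378. Of the 41 receptor-gene regions in this set, LPS moved 2 up (9.83% of all) and 4 down (7.88%) in the GFP line, and 1 up (7.64%) and 2 down (5.66%) in the Nur77 line. These splits moved with the scaling: normal scores gave 1 up and 7 down in the GFP line and 1 up and 1 down in the Nur77 line, and limma with trend and robust fitting gave 2 up and 1 down in the Nur77 line. The Nur77 line against the GFP line had 0 higher (2.98%) and 5 lower (4.66%) without LPS, and 0 higher (2.97%) and 4 lower (5.04%) with it. The median difference between lines was -2.6 points without LPS and -1.6 with it, beside 0.3 and 0.6 over all regions; for LPS it was -1.6 in the GFP line and -0.4 in the Nur77 line, beside -1 and -0.6. The difference of the LPS response between the lines passed for 0 of 41 regions (0.0152% of all higher, 0.0265% lower), and at an unadjusted p under 0.05 for 1 in each direction.

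**Figure D2:**
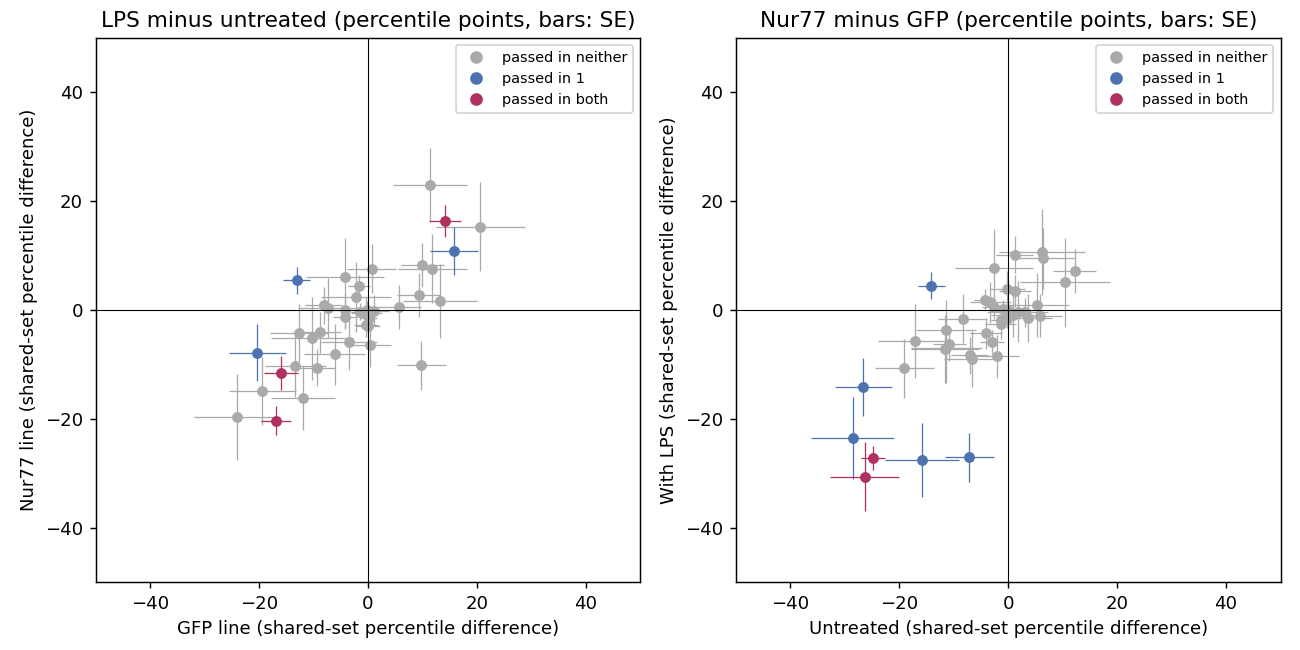
Difference in shared-set percentile for each of the 41 regions called in all 12 libraries, LPS minus untreated in the 2 lines (left) and Nur77 minus GFP without and with LPS (right); bars are SE and colour shows in how many of the 2 contrasts a region passed the limma test. On the right, the regions that passed lie to the left of 0 on the untreated axis or below 0 on the LPS axis.

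Among the activating Fc receptors, Fcgr3 held the difference between lines with the smallest adjusted p. A region inside the gene, chr1:171064003-171065186, lies upstream of the start site printed above and below the upper end of the annotated span (chr1:171051169-171065915). Fcgr3 is on the minus strand, so this upper end is the 5′ end of the span, and the region lies within 1000 bp of it. Its shared-set percentile was 85.0, 86.0 and 79.8 in untreated GFP cells and 82.3, 83.6 and 84.1 in GFP cells with LPS. In the Nur77 line it was 58.7, 58.2 and 59.6 untreated and 58.5, 56.3 and 53.6 with LPS. All 6 Nur77 libraries were below all 6 GFP libraries. The region was lower in the Nur77 line by -24.8 ± 2.2 points without LPS (SE, limma adjusted p = 0.00023) and by -27.2 ± 2.2 with LPS (adjusted p = 0.00013), and both calls held in all 17 alternatives. Here and below, ranks by fold is among the alternatives counted and gives the same values by construction. LPS moved it by -0.3 ± 2.2 points in the GFP line (adjusted p = 0.96) and by -2.7 ± 2.2 in the Nur77 line (adjusted p = 0.52).

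A region 8.1 kb upstream of Fcgr3, chr1:171074055-171075013, was also lower in the Nur77 line. Its percentile was 56.6, 57.3 and 55.0 in untreated GFP cells, 75.1, 74.6 and 54.5 in GFP cells with LPS, 40.5, 22.8 and 26.6 in untreated Nur77 cells, and 29.2, 44.1 and 39.3 in Nur77 cells with LPS. The lines did not overlap in either condition, though libraries varied more than at the previous region. The difference was -26.4 ± 6.3 points without LPS (limma adjusted p = 0.031) and -30.6 ± 6.3 with it (adjusted p = 0.016). The untreated call was lost without GFP untreated replicate 1, 2 or 3 or Nur77 untreated replicate 2 or 3 (adjusted p 0.078 to 0.091), and the LPS call without GFP LPS replicate 1 or 2 or Nur77 LPS replicate 1 (adjusted p 0.055 to 0.061). This region had the widest range of group means of the 41, and the gene-end regions with the most similar profile over the 12 libraries were at Susd6 (Pearson r 0.924), Atp11a (0.919), Pla2g5 (0.918), Letmd1 (0.916) and Nectin3 (0.908), given as a description over libraries that share their depth. Susd6 lies on chromosome 12, where the median difference between lines was -10.4 points without LPS and -10.5 with it. Over all regions these medians were 0.3 and 0.6. The share of this chromosome-wide difference in the Susd6 match was not tested.

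The region at the printed start site of Fcgr3 did not show this. At chr1:171058573-171060440, which holds the printed Fcgr3 window but not the 5′ end of the annotated span, percentiles were 40.3, 30.3 and 45.7 in untreated GFP cells, 23.7, 42.0 and 44.2 in GFP cells with LPS, 20.5, 34.0 and 27.6 in untreated Nur77 cells and 32.2, 20.4 and 36.6 in Nur77 cells with LPS. The groups overlapped and no contrast passed. One further region, 3.6 kb upstream at chr1:171069557-171069959, was called in the 3 GFP untreated libraries and in no other, with 9, 7 and 18 reads at the summit. It is counted as lost with LPS in the GFP line and as lost in the untreated Nur77 line, and both rest on the same 3 libraries. Summit heights this low are close to the smallest height called, 5 to 8 reads depending on the library, and with lists of equal length the separation was gone. A region over the lower, downstream end of the gene, chr1:171050669-171051466, was called in 9 libraries.

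**Figure D3:**
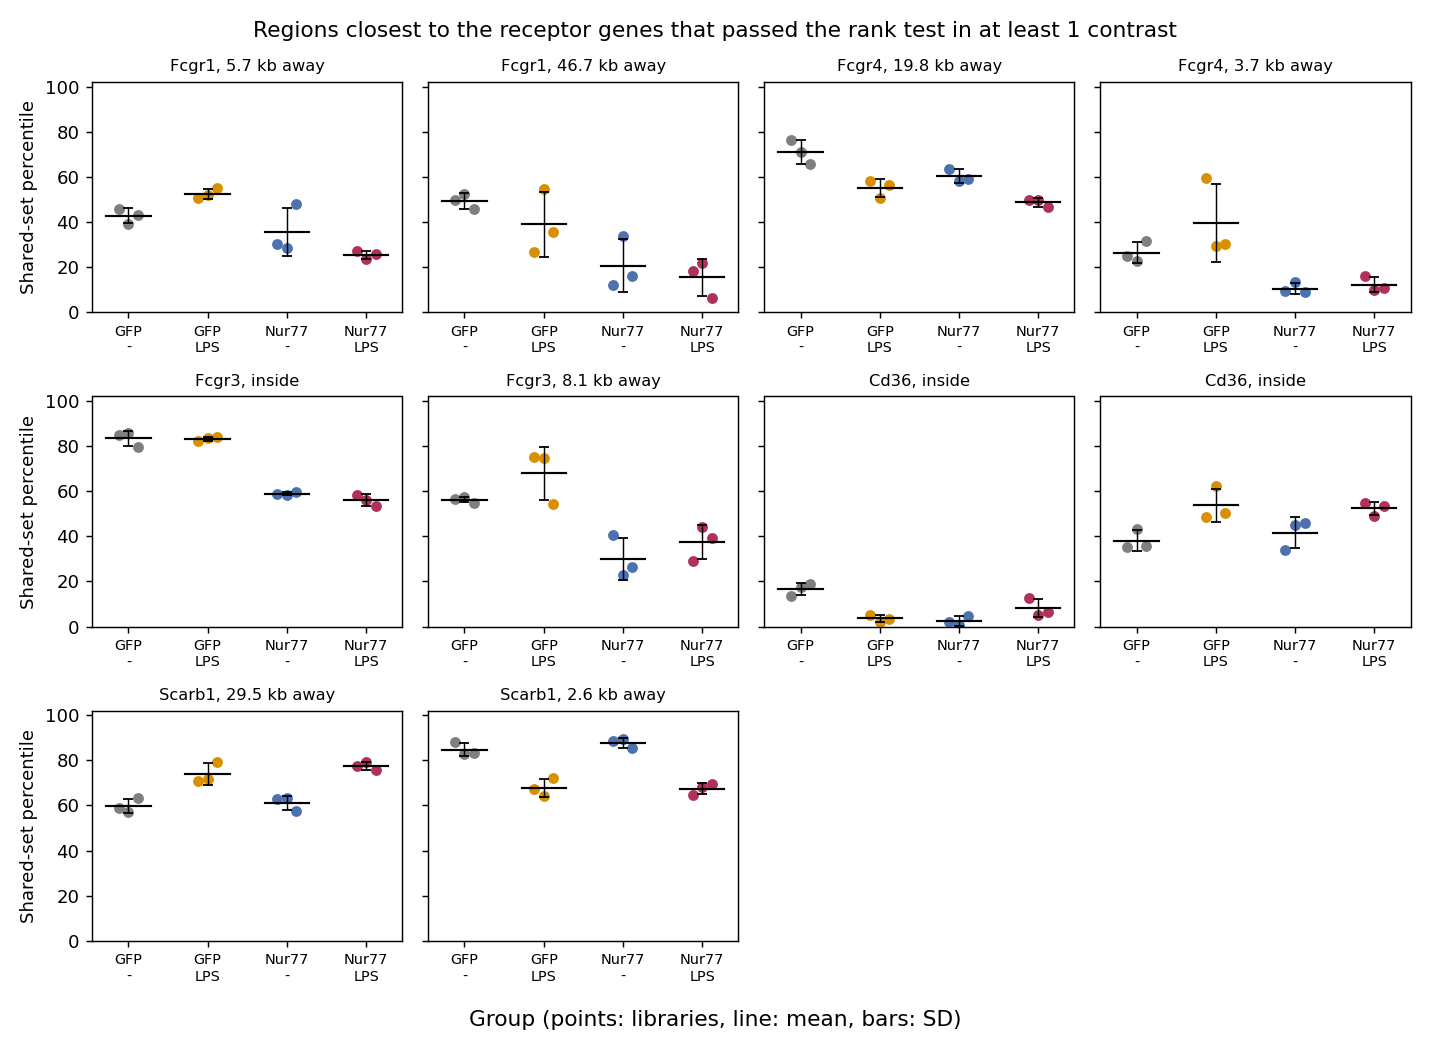
Shared-set percentile (0 to 100) of the 10 regions that passed the limma test in at least 1 contrast and have a receptor gene as their nearest gene, 1 panel per region, for the 4 groups (points, libraries; line, mean; bars, SD, n = 3; a dash marks untreated). At the region inside Fcgr3 the GFP libraries lie between 79.8 and 86.0 and the Nur77 libraries between 53.6 and 59.6.

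Fcgr4, an activating receptor for IgG2 classes, had a region 3.7 kb downstream (chr1:171033476-171034716) that was lower in the Nur77 line with LPS. Percentiles were 24.9, 22.9 and 31.6 in untreated GFP cells, 59.7, 29.3 and 30.4 in GFP cells with LPS, 9.3, 13.3 and 9.2 in untreated Nur77 cells and 16.0, 9.8 and 10.9 in Nur77 cells with LPS. GFP LPS replicate 1 stood above the other GFP libraries, and all Nur77 libraries were below all GFP libraries. The difference with LPS was -27.5 ± 6.8 points (limma adjusted p = 0.035). Without GFP LPS replicate 1 it was -17.6 points (adjusted p = 0.015). The call was lost with lists of equal length (adjusted p = 0.063) and without Nur77 untreated replicate 3 or Nur77 LPS replicate 1, 2 or 3 (adjusted p 0.05 to 0.096). Between Fcgr2b and Fcgr4, 19.8 kb upstream of Fcgr4, the region chr1:170996653-170999151 was lower after LPS in both lines. Its percentiles were 76.6, 71.1 and 65.7 in untreated GFP cells, 58.1, 50.8 and 56.5 in GFP cells with LPS, 63.8, 58.2 and 59.2 in untreated Nur77 cells and 49.9, 49.9 and 46.6 in Nur77 cells with LPS. LPS lowered it by -16.0 ± 3.1 points in the GFP line (limma adjusted p = 0.0062, held in all 17 alternatives). In the Nur77 line the fall was -11.6 ± 3.1 (adjusted p = 0.036), and the call held in 7 of 17. It was lost with normal scores (adjusted p = 0.12), with trend and robust fitting (0.086), and without any 1 of GFP untreated replicate 2, GFP LPS replicate 3 or the 6 Nur77 libraries (0.05 to 0.12).

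The Fcgr4 start region, chr1:171016785-171020209, lay at 50.8, 56.0 and 43.2 in untreated GFP cells, 39.9, 43.3 and 38.6 in GFP cells with LPS, 44.7, 45.1 and 39.0 in untreated Nur77 cells and 30.2, 35.9 and 30.8 in Nur77 cells with LPS. The LPS difference was -9.4 ± 3.4 points in the GFP line and -10.6 ± 3.4 in the Nur77 line, and neither passed (limma adjusted p = 0.084 and 0.067). A weak region 18.4 kb from the gene, chr1:170999667-171000487, was called in all 3 GFP untreated libraries (8, 11 and 8 reads) and in none of Nur77 untreated, and also in 1 library of each LPS group; with lists of equal length it no longer separated the lines. Fcgr2b, the inhibitory receptor, had no region that passed nearest to it. Its start region, chr1:170974975-170977744, was at 43.7, 21.5 and 26.0 in untreated GFP cells, 29.4, 23.8 and 19.8 in GFP cells with LPS, 38.5, 31.5 and 26.6 in untreated Nur77 cells and 26.0, 18.7 and 27.5 in Nur77 cells with LPS, with all groups overlapping. The regions with the highest mean percentile nearest to Fcgr2b, Fcgr4 and Fcgr3 passed no contrast. For Fcgr2b this was chr1:170911863-170913531, 47.0 kb away beside the Fc receptor-like gene Fcrlb. It was at 26.5, 41.4 and 44.9 in untreated GFP cells, 52.8, 43.3 and 50.9 in GFP cells with LPS, 27.6, 4.0 and 29.5 in untreated Nur77 cells and 47.2, 39.7 and 43.2 in Nur77 cells with LPS. The Nur77 groups did not overlap, and their LPS difference of 23.0 ± 6.8 points missed the threshold (limma adjusted p = 0.051). For Fcgr4 it was chr1:171036354-171039601, between 57.4 and 78.0, and for Fcgr3 chr1:171100884-171103881, beside Cfap126, between 80.5 and 91.5.

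Fcgr1, the high-affinity receptor for monomeric IgG, differed between lines upstream of its promoter. The region 5.7 kb upstream, chr3:96299657-96303329, was at 45.9, 39.3 and 43.2 in untreated GFP cells and 50.8, 51.9 and 55.0 in GFP cells with LPS. It was at 30.2, 28.7 and 48.0 in untreated Nur77 cells and 27.1, 23.7 and 25.9 in Nur77 cells with LPS. With LPS the lines stood apart, by -27.0 ± 4.5 points (limma adjusted p = 0.0059, held in all 17 alternatives); without LPS the difference was -7.2 ± 4.5 (adjusted p = 0.42) and the groups overlapped. The LPS response differed between lines by -19.9 ± 6.3 points, which did not pass (limma unadjusted p = 0.010, adjusted p = 0.38).

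A region 46.7 kb upstream of Fcgr1, chr3:96340652-96342865, was at 49.9, 52.5 and 45.7 in untreated GFP cells, 26.6, 54.9 and 35.8 in GFP cells with LPS, 34.0 in Nur77 untreated replicate 2 and 16.2 or less in the other two, and 18.4, 22.0 and 6.4 in Nur77 cells with LPS. It was lower in the untreated Nur77 line by -28.6 ± 7.6 points (limma adjusted p = 0.048), a call that held in 7 of 17 alternatives. It was lost with normal scores (adjusted p = 0.057) and without any 1 of the GFP untreated libraries, GFP LPS replicate 3, Nur77 untreated replicate 1 or 3 or the Nur77 LPS libraries (0.05 to 0.14). The Fcgr1 start region, chr3:96292918-96294448, was at 62.1, 64.8 and 62.2 in untreated GFP cells and 48.8, 40.7 and 41.4 in GFP cells with LPS, groups that did not overlap. The fall of -19.4 ± 6.2 points missed the threshold (limma adjusted p = 0.055). In the Nur77 line it was at 38.5, 64.2 and 51.6 untreated and 40.6, 43.1 and 25.9 with LPS, with overlap. The region with the highest mean percentile near Fcgr1, chr3:96325660-96330502, stayed between 96.3 and 99.7 in all 12 libraries.

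Of the class A scavenger receptors, Marco was the gene with the fewest calls in the Nur77 line. Of its 7 regions, 3, 4 and 6 were called in the GFP untreated libraries and 4, 5 and 7 in GFP cells with LPS. The Nur77 untreated libraries called 0, 0 and 2, and the Nur77 LPS libraries 2, 0 and 1. Every GFP library therefore called more Marco regions than every Nur77 library. Regions were kept when at least 2 lists called them, and some of the 7 were called in GFP libraries only. Those regions entered the set through the GFP line, so this count is a description and not a test of the lines. Over all regions the shares called were 65.5%, 75.4% and 76.4% in the GFP untreated libraries, 56.4%, 67.5% and 89.4% with LPS, 65.6%, 43.3% and 67.7% in the Nur77 untreated libraries and 71.8%, 54.6% and 61.8% with LPS, so GFP libraries also tended to call more regions in general. Depth differed within both lines and overlapped between them: GFP LPS replicate 1, whose background height of 0.411 reads was next to the lowest, called 4 of the 7, and Nur77 untreated replicate 3, with a background of 1.254, called 2. The share that depth has in this count was not tested. In bulk chromatin, a region open in fewer cells and one less open in every cell cannot be told apart.

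The Marco regions lay mostly in the lower or middle part of their lists, above the middle in some GFP libraries for 3 of them, and none passed a test. No region of the series could pass the Fisher's exact test for the line after adjustment. The region 26.6 kb upstream, chr1:120531664-120533203, had 12 and 14 reads at the summit in GFP untreated replicates 1 and 3, 9, 14 and 46 in GFP cells with LPS, and no call in any Nur77 library. This is 5 of 6 GFP against 0 of 6 Nur77 libraries (two-sided Fisher's exact p = 0.015, adjusted p = 0.19). In the LPS groups it was called in 3 fewer Nur77 than GFP libraries. That stayed so with lists of equal length, at a -log10 q of at least 5, and with peaks covering 25% of the region. It entered the set through GFP libraries only. The region 12.5 kb upstream, chr1:120517525-120518140, had 31, 22 and 29 reads in untreated GFP cells and 12, 16 and 36 in GFP cells with LPS, with 14 in Nur77 untreated replicate 3 and 15 in Nur77 LPS replicate 1. The region 43.8 kb downstream, chr1:120430082-120430716, had 19, 19 and 25 reads, then 6, 20 and 43, then 13 and 12 in the same 2 Nur77 libraries. Each of these was called in 6 of 6 GFP and 2 of 6 Nur77 libraries (exact p = 0.061, adjusted p = 0.35). The only region inside Marco, chr1:120480888-120481386, was called in 2 GFP untreated libraries and 1 GFP LPS library and in no Nur77 library. None of the 7 was in the set ranked in all libraries, so their strength could not be tested.

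**Figure D4:**
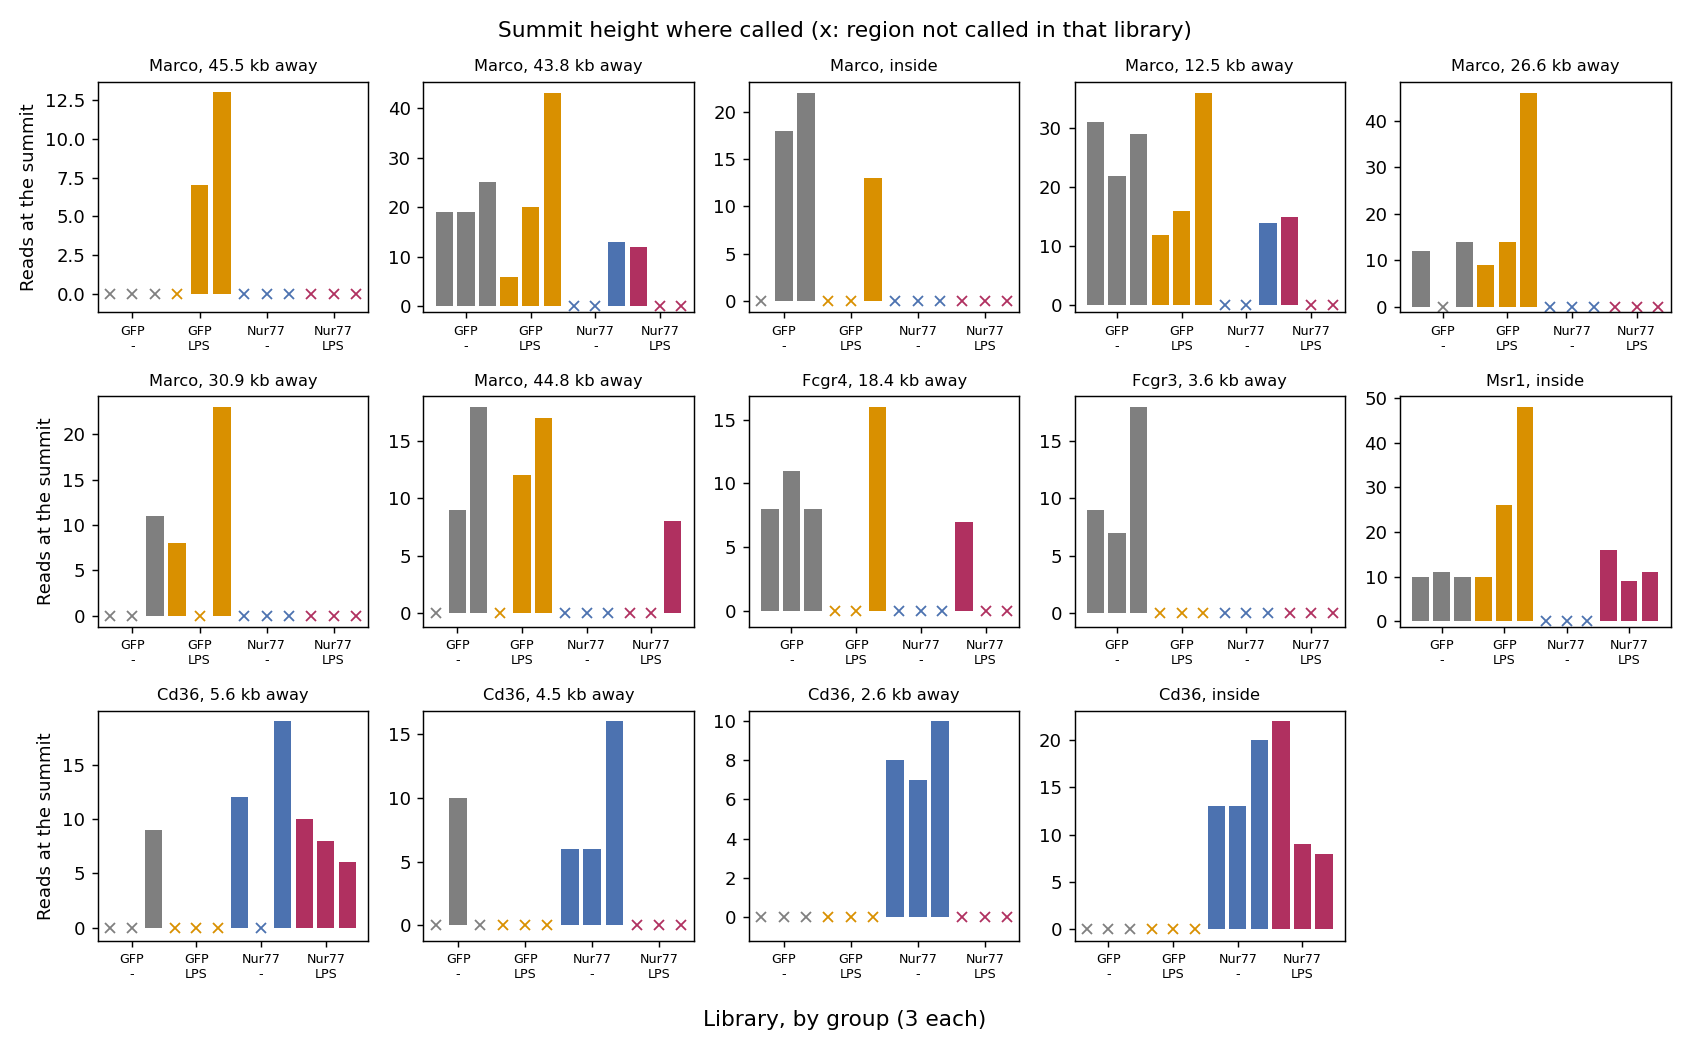
Reads at the summit (bars from 0, recovered from the deposited folds; crosses, not called) in each of the 12 libraries for the 7 Marco regions and for the 7 further regions at Fcgr4, Fcgr3, Msr1 and Cd36 that separated 2 groups by their calls; a dash marks untreated. Bars in the Marco panels are mostly from GFP libraries, and the last Cd36 panel has bars in the 6 Nur77 libraries only. Heights are not scaled for depth.

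Msr1, the other class A receptor, had 1 region that was missing from a single group. At chr8:39635632-39636548, inside the gene near its upper end, the summit had 10, 11 and 10 reads in untreated GFP cells, 10, 26 and 48 in GFP cells with LPS and 16, 9 and 11 in Nur77 cells with LPS. No Nur77 untreated library called it. It is thus counted both as gained with LPS in the Nur77 line and as lost in the untreated Nur77 line, and the 2 counts share the Nur77 untreated libraries. With lists cut to equal length both separations disappeared. The only Msr1 region called in all 12 libraries, chr8:39618960-39620865 inside the gene, was at 28.0, 20.2 and 18.0 in untreated GFP cells, 26.6, 36.0 and 33.5 in GFP cells with LPS, 23.6, 25.8 and 19.3 in untreated Nur77 cells and 36.0, 23.7 and 33.8 in Nur77 cells with LPS, and passed no contrast. A region 0.3 kb above the gene's upper end, chr8:39643054-39644992, was called in 3 GFP untreated libraries and in 2 libraries of each other group.

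Cd36, a class B receptor, was the gene at which regions were called in the Nur77 line and not in the GFP line. A region inside the gene, chr5:17876717-17877658, had 13, 13 and 20 reads in untreated Nur77 cells and 22, 9 and 8 in Nur77 cells with LPS, and no call in any of the 6 GFP libraries. Its percentile within each list was 32.4, 39.3 and 36.8 untreated and 45.3, 15.9 and 12.5 with LPS, so it stood in the lower part of the lists. The 6 against 0 calls gave a two-sided Fisher's exact p of 0.0022, with an adjusted p of 0.092. No split of the calls is more extreme, so this adjusted p is the lowest that any region could have. Nur77 untreated replicate 2, with the shortest list, called it, whereas GFP LPS replicate 3, with the longest, did not. With lists of equal length it was called in 2 more Nur77 than GFP libraries without LPS and in 1 more with LPS, beside 3 more in each as deposited. The share that list length has in these calls was not tested.

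Beyond the low end of Cd36, 3 neighbouring regions were called in part of the Nur77 libraries. The first, chr5:17777530-17779073, 2.6 kb from the gene, had 8, 7 and 10 reads in untreated Nur77 cells and no call in any other library. The second, chr5:17776329-17777227, had 6, 6 and 16 reads in untreated Nur77 cells, was not called in Nur77 cells with LPS, and was called in 1 GFP untreated library. The third, chr5:17774533-17776049, was called in 2 Nur77 untreated, 3 Nur77 LPS, 1 GFP untreated and 0 GFP LPS libraries, with 10, 8 and 6 reads in Nur77 cells with LPS. These lie next to each other and are not independent, and their heights are near the lowest called. With lists of equal length none of the 3 separated its groups, the second and the third no longer did at a -log10 q of at least 5, and the third also failed when a peak had to cover 25% of the region. Over all 15 Cd36 regions the GFP libraries called 7, 10 and 10 untreated and 8, 7 and 10 with LPS, the Nur77 libraries 12, 9 and 13 untreated and 12, 10 and 10 with LPS. The lines overlapped in this count, beside the shares of all regions given for Marco, which were on the whole lower in the Nur77 libraries. Some Cd36 regions also entered the set through 1 line only.

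Strength at Cd36 moved in both directions. The region chr5:17842117-17842921, inside the gene and upstream of the printed start, was at 13.5, 17.4 and 19.1 in untreated GFP cells, 5.1, 2.2 and 3.5 in GFP cells with LPS, 2.2, 0.6 and 4.9 in untreated Nur77 cells and 12.6, 5.2 and 6.4 in Nur77 cells with LPS. Its summit had 21, 28 and 35 reads in untreated GFP cells and 8, 10 and 25 in GFP cells with LPS. In the Nur77 line it had 12, 5 and 22 untreated and 28, 12 and 14 with LPS. The 5 reads of Nur77 untreated replicate 2 are the lowest height called in that library. By percentile the region was highest in the untreated GFP libraries, which overlapped none of the other groups. LPS lowered it in the GFP line by -13.1 ± 2.5 points (limma adjusted p = 0.0059), and the untreated Nur77 line was lower than the untreated GFP line by -14.1 ± 2.5 (adjusted p = 0.0091). Both comparisons share the GFP untreated libraries, and both held in all 16 alternatives that could be fitted. The missing alternative was lists of equal length, under which the region was no longer called in every library. How far list length enters these differences was therefore not tested. In the Nur77 line the LPS difference was 5.5 ± 2.5 (adjusted p = 0.2). The difference of the 2 responses was 18.6 ± 3.6 points, with an unadjusted limma p of 0.00039 and an adjusted p of 0.18, so it did not pass.

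A second region inside Cd36, chr5:17857092-17858589, was higher after LPS in the GFP line. It was at 35.2, 43.3 and 35.8 in untreated GFP cells, 48.8, 62.3 and 50.4 in GFP cells with LPS, 33.8, 45.1 and 46.1 in untreated Nur77 cells and 54.7, 49.0 and 53.6 in Nur77 cells with LPS. The rise in the GFP line was 15.8 ± 4.4 points (limma adjusted p = 0.033), and the groups did not overlap. It was lost with normal scores (adjusted p = 0.058) and without GFP untreated replicate 1 or 3 or GFP LPS replicate 2 (0.098 to 0.1). The region nearest to the printed Cd36 promoter, chr5:17839220-17840276, was called in all 12 libraries at 33.8 to 56.9 and passed no contrast.

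Scarb1, the class B receptor for high-density lipoprotein, had regions that moved with LPS in the same direction in both lines. The region 2.6 kb beyond the low end of the gene, chr5:125270455-125274488, was at 88.2, 82.8 and 83.2 in untreated GFP cells and 67.1, 64.0 and 72.2 in GFP cells with LPS. In the Nur77 line it was at 88.4, 89.3 and 85.4 untreated and 64.7, 68.2 and 69.3 with LPS. LPS lowered it by -16.9 ± 2.7 points in the GFP line (limma adjusted p = 0.002) and by -20.3 ± 2.7 in the Nur77 line (adjusted p = 0.00088), and both held in all 17 alternatives. The difference of the responses was -3.4 ± 3.8 points (limma adjusted p = 0.88). Further out, at 29.5 kb, the region chr5:125245376-125247557 rose. It was at 58.8, 57.3 and 63.3 in untreated GFP cells, 70.9, 71.6 and 79.4 in GFP cells with LPS, 62.7, 63.1 and 57.4 in untreated Nur77 cells and 77.5, 79.2 and 75.5 in Nur77 cells with LPS. The rise was 14.1 ± 2.9 points in the GFP line (limma adjusted p = 0.0077) and 16.4 ± 2.9 in the Nur77 line (adjusted p = 0.0045), again in all 17 alternatives. Untreated and LPS libraries did not overlap at either region in either line.

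At the ends of Scarb1 itself no contrast passed. The region over the upper end, chr5:125339009-125342552, was at 79.0, 82.3 and 75.6 in untreated GFP cells, 70.9, 65.7 and 76.1 in GFP cells with LPS, 80.3, 76.8 and 83.4 in untreated Nur77 cells and 85.4, 81.9 and 76.0 in Nur77 cells with LPS. The region just inside the lower end, chr5:125278028-125279579, lay between 2.6 and 23.3, and one 0.7 kb beyond that end, chr5:125274808-125276376, was called in 3 libraries.

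Genes of the same pathways gave these counts. For 12 genes of Fc receptor signalling, among them the partner chain Fcer1g and the kinase Syk, 84 regions were called in all 12 libraries. In the GFP line 8 of them rose and 9 fell with LPS, and in the Nur77 line 6 rose and 6 fell, beside the 9.83%, 7.88%, 7.64% and 5.66% of all regions given above. Between the lines, 0 were higher and 3 lower in Nur77 without LPS, and 3 higher and 3 lower with it. For 16 other scavenger and uptake receptors, among them Cd68, Mrc1 and Lrp1, 83 regions were ranked. LPS raised 7 and lowered 6 in the GFP line, and raised 6 and lowered 4 in the Nur77 line. The Nur77 line had 2 higher and 5 lower without LPS, and 1 higher and 6 lower with it. Over all regions the shares between lines were 2.98% higher and 4.66% lower without LPS, and 2.97% and 5.04% with it. Median differences between lines were 0.4 points without LPS and 1.1 with it for the signalling genes, 0.7 and 0.2 for the other receptors, and -2.6 and -1.6 for the 8 genes above. The chromosomes of the 8 genes had medians between 0 and 1.3 points between lines.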

How the data were processed

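ATAC-seq peak lists of 12 RAW264.7 libraries were used, 4 groups of 3 taken from titles and characteristics. The submitters' processing notes name cutadapt 2.6, DiffBind 3.0.15 and mm10, without an aligner or peak caller. Peak names record mapping quality 20 and a q value of 0.001. The deposited score, fold (a ratio over the caller's background), -log10 p-value and -log10 q are the authors' values per peak, from lists called per library; peaks were ranked and filtered with them inside their own list. Read totals are unknown. Deposited folds lie on a grid that gives each library's background height and whole reads at summits (100.0% within 0.1 reads; background 0.402 to 1.45 reads), used as a description.

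Merging peaks with bedtools 2.31.1 gave 100374 regions, 76042 of them from at least 2 lists. A region was called in each library with a peak over at least 1 bp of it. Gene spans came from a RefSeq table of the same build (21887 protein-coding genes). Calls were counted per comparison and tested by two-sided Fisher's exact test (6 against 6 libraries). Ranks were tested with limma 3.58.1 in R 4.3.3 over 4 groups, threshold 0.05, and the test was checked on simulated data. Python 3.11.15 and scipy 1.17.1 were used. Members, gene lists and tests were chosen with earlier results of these data known. Regions were named when within 1000 bp of a gene end or start, gained or lost, past the rank test, or highest for their gene. A few of these enter the counts without being reported singly here. Alternatives were equal list lengths, a -log10 q of at least 5, 50% overlap, ranks by fold, windows of 10 and 100 kb, normal scores, limma trend with robust fitting, a replicate block and leaving out each library; a peak covering 25% of the region was added after seeing the data.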

Additional observations from a re-analysis of the deposited data

How the results depend on the processing

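No named region's difference changed sign under any alternative, but the balance of small counts did. LPS in the Nur77 line went from 1 gained and 2 lost to 2 and 1 at a -log10 q of at least 5, and from 1 up and 2 down in rank to 2 and 1 with limma trend and robust fitting or without Nur77 untreated replicate 3. LPS in the GFP line went from 0 gained and 1 lost to 2 and 1 when a peak had to cover 25% of the region and to 3 and 1 without GFP LPS replicate 1. The lines with LPS went from 2 gained and 1 lost to 2 and 3 with lists of equal length (also when a library was left out, below) and to 1 and 2 with the 25% cover, and the untreated lines from 2 gained and 3 lost to 2 and 1 at a -log10 q of at least 5. Of the values for counts, 184 stayed within 1.5 times the main count and 39 did not. Of those for single regions, 279 stayed the same, 44 lost their call and 17 numbers of calls moved. The values that stayed include those that are identical by construction, named below. They also include the Fisher's exact tests, whose count of receptor-gene regions was 0 under every setting. The main tests could not decide, so these counts of 0, also with a library left out, are no sign of stability. Counts of separating regions were small and moved easily. With lists of equal length (36184 peaks), LPS in the GFP line gave 3 gained (main 0) and 4 lost (1), LPS in the Nur77 line 0 gained (1) and 1 lost (2), and the lines with LPS 3 lost (1). At a -log10 q of at least 5, lost counts were 0 for LPS in the GFP line and 1 each for LPS in the Nur77 line and the untreated lines (3), and 2 were gained with LPS in the Nur77 line. Within 100 kb, gained counts with LPS were 1 in the GFP and 2 in the Nur77 line, and 2 were lost between lines with LPS; within 10 kb the latter was 0. When a peak had to cover 25% of the region, 2 were gained with LPS in the GFP line, and between lines with LPS 1 was gained and 2 were lost. Regions changed in rank within 10 kb were 3 for LPS in the GFP line (main 6), 1 for LPS in the Nur77 line (3) and 3 for the untreated lines (5), since fewer regions were counted; within 100 kb LPS in the Nur77 line gave 6.

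Leaving out each library gave 0 to 3 gained and 1 to 6 lost for LPS in the GFP line, 1 to 2 and 2 to 4 for LPS in the Nur77 line, 2 to 3 and 3 to 5 for the untreated lines, 2 to 3 and 1 to 4 for the lines with LPS, and 0 to 0 for the Fisher's exact tests. The GFP LPS gains came without GFP LPS replicate 1 (3), GFP LPS replicate 2 (1) or GFP untreated replicate 3 (1), and the 6 losses without GFP LPS replicate 3. In the Nur77 line 2 were gained without untreated replicate 1 or LPS replicate 3, and 4 lost without untreated replicate 2. Between untreated lines 5 were lost without GFP replicate 1 or Nur77 replicate 3; with LPS 4 were lost without GFP replicate 1, 3 without GFP replicate 2 or Nur77 replicate 1, and 2 without Nur77 replicate 3. Regions changed in rank ran from 4 to 7, 2 to 5, 2 to 7, 2 to 4 and, for the difference of responses, 0 to 0. The LPS count in the Nur77 line was 5 without GFP untreated replicate 3; that of the untreated lines was 2 without GFP replicate 1 and 3 without GFP replicate 2 or Nur77 replicate 3; that of the lines with LPS was 2 without Nur77 replicate 1.

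Replicate numbers were not used to pair the samples in the main test. Deviations of same-numbered libraries correlated at -0.18 to 0.16 (18 pairs, 2 over 0.1), other pairs at -0.16 to 0.24 (36 pairs, 4 over 0.1). With 3 libraries per group, such correlations cannot exclude a pairing. With the replicate block, regions changed in rank were 7, 5, 5, 5 and 0 (main 6, 3, 5, 4 and 0). An overlap of 50% and ranks by fold gave identical values by construction. The cause of the other shifts was not tested. The number of reads limits what is called: the lowest summit called ran from 5 to 8 reads.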
